A study of Mus musculus with 19 samples.

Results

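Nuclear receptors are transcription factors, most of which switch genes on or off when a small fat-soluble molecule such as a fatty acid, a bile acid, an oxysterol, a retinoid, a steroid or vitamin D binds to them. Many of them bind DNA as pairs with a retinoid X receptor (RXR), at sites built from copies of the bases AGGTCA. In kidney they are known for the control of fatty acid use in the proximal tubule, of calcium and phosphate handling and of salt transport.

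The kidney transcript levels of 38 nuclear receptor genes, listed by name, were examined. Of these, 36 genes had at least 1 probe set that names them alone, out of 17097 such genes on the array, while Rarb and Nr1h2 had none. The 36 genes were read by 82 of the 45141 probe sets, and 22 of them by more than 1. A gene was described at its brightest probe set, the one with the highest mean over all 19 arrays.

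Kidneys came from male mice without renal ischemia-reperfusion injury (IRI), each measured on its own Affymetrix HT MG-430 PM array. Aged-overweight animals were F1 hybrids of FVB and C57BL/6J with a mean age of 73 weeks and a weight of about 47 g, with 5 fasted for 3 days on water alone and 5 fed ad libitum. Young-lean animals were C57BL/6J, 10 to 14 weeks old and 22 to 25 g, with 4 fasted for 3 days and 5 fed ad libitum. Age, strain and body weight change together between the cohorts and cannot be told apart, so that aged and young below stand for all 3.

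Values are log2 levels, differences between diets are log2 fold changes, and SE is their standard error. Array medians lay between 3.44 and 3.49 in aged and between 4.15 and 4.21 in young kidneys, so levels were compared between diets within an age and never between ages. Arrays of a group correlated at 0.988 or more over all probe sets. Segment markers were present, with median levels of 10.8 or more for the proximal tubule list on every array, and 4 of 6 adrenal cortex markers in aged and 5 of 6 in young kidneys were too dim to judge. A rise or a fall means an adjusted p of 0.05 or less (limma, Benjamini-Hochberg over all probe sets). A gene was called too dim to judge in an age where its mean in both diets was at or below the dim limit of that age. This limit, 3.33 in aged and 3.74 in young kidneys, was the 95th percentile of the levels of 127 probe sets for olfactory, vomeronasal and keratin-associated genes.

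Fasting changed 2 of the 36 receptor genes in aged kidneys and 10 of 36 in young kidneys. In aged kidneys 1 gene, Ppara, rose (background 4.32%) and 1, Nr2f6, fell (background 4.84%). In young kidneys 5 genes rose, namely Ppara, Nr1h4, Nr1i3, Vdr and Nr2c1 (background 10.7%), and 5 fell, namely Ppard, Nr1h3, Nr2f6, Nr3c1 and Esrra (background 12.5%). Across all genes at their brightest probe set, 9.16% passed in aged and 23.2% in young kidneys, so that the shares of receptor genes, 5.56% and 27.8%, lay near or below the background. With a fold change of at least 1.5 as well, 1 receptor gene passed in aged kidneys (background 2.67%) and 3 in young kidneys (background 6.49%). At an unadjusted p under 0.05 there were 8 in aged and 17 in young kidneys. The share of all genes at this cutoff was not taken, so these counts have no background.

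The median log2 fold change of the 36 genes was -0.01 in aged and 0.01 in young kidneys, and that of all genes was -0.01 in both. The median size of the change, whatever its sign, was 0.11 for the receptor genes and 0.10 for all genes in aged kidneys, and 0.16 and 0.11 in young kidneys. In aged kidneys the number of genes that passed stood at 2 or 3 when each mouse was left out in turn. In young kidneys it stood at 9 or 10. A single fit of all 19 arrays gave 5 genes in aged kidneys, adding Esrra, Hnf4g and Rxra. The share of all genes in that fit was not taken, so this count has no background.

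**Figure D1:**
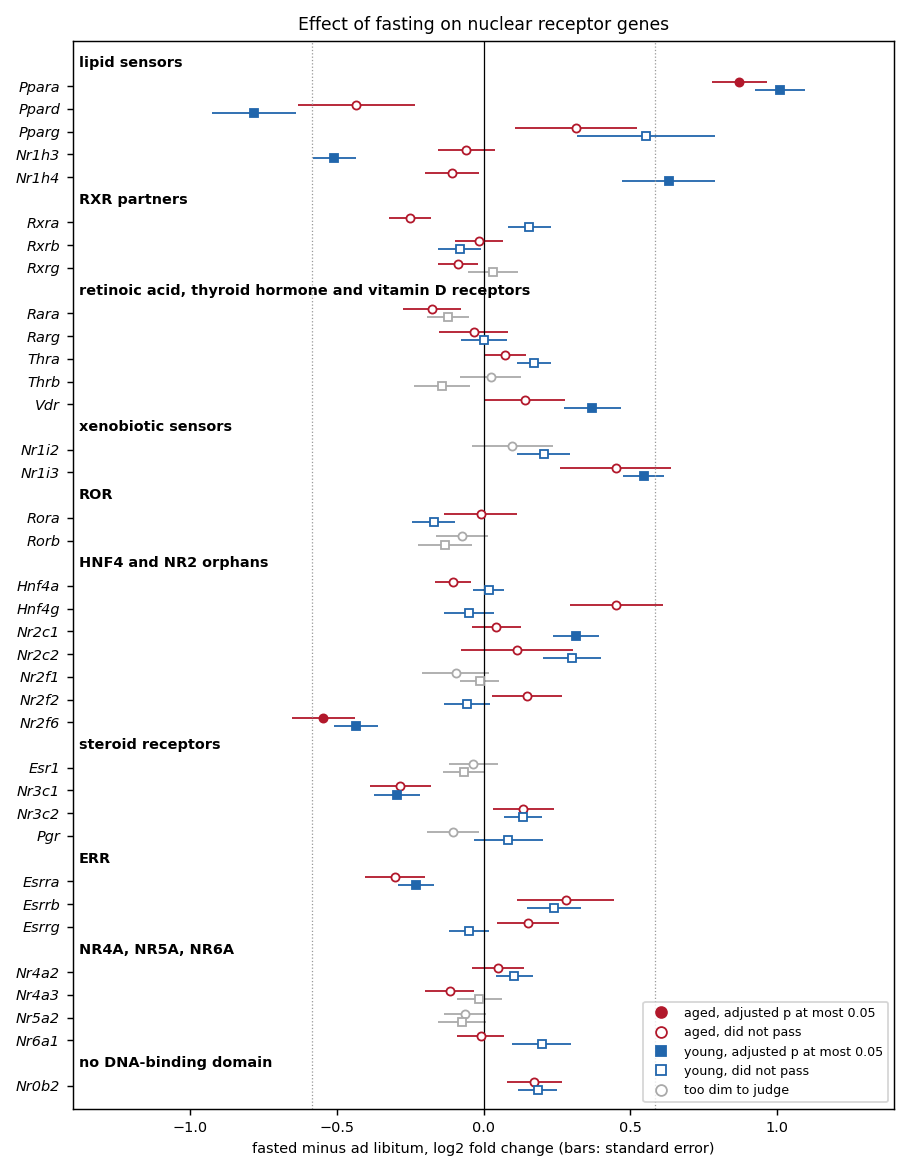
Log2 fold change of each receptor gene at its brightest probe set, fasted minus ad libitum fed, with the standard error as a bar, in aged (circles) and young (squares) kidneys. Filled symbols passed an adjusted p of at most 0.05, grey symbols are too dim to judge, and dotted lines mark a fold change of 1.5. Ppara lies at 0.87 and 1.01, and most other genes lie between the dotted lines.

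Several receptors were too dim to judge. In aged kidneys these were 7 genes, namely Thrb, Nr1i2, Rorb, Nr2f1, Esr1, Pgr and Nr5a2. In young kidneys they were 8 genes, namely Rxrg, Rara, Thrb, Rorb, Nr2f1, Esr1, Nr4a3 and Nr5a2. The thyroid hormone receptor Thrb, the orphan receptors Rorb and Nr2f1, the estrogen receptor Esr1 and Nr5a2, known as a regulator of bile acid and steroid synthesis, were too dim in both ages, and 26 genes could be judged in both. The share too dim was 19.4% of the receptor genes in aged and 22.2% in young kidneys, against 34.01% and 33.8% of all genes. With the median of all probe sets as the limit, 8 and 10 receptor genes would be too dim.

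Some genes cleared the limit in 1 diet only. In aged kidneys Nr1i3 and Hnf4g did so only in fasted mice, with means of 3.49 and 3.37, and Ppard only in ad libitum fed mice, with a mean of 3.74. In young kidneys Nr1i3 and Nr4a2 did so only in fasted mice, with means of 3.77 and 3.78. Log2 fold changes of such genes set a measured level against one that could not be told from background. Since the samples are whole kidney, fewer cells of a type and less RNA per cell cannot be told apart for any gene below.

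**Figure D2:**
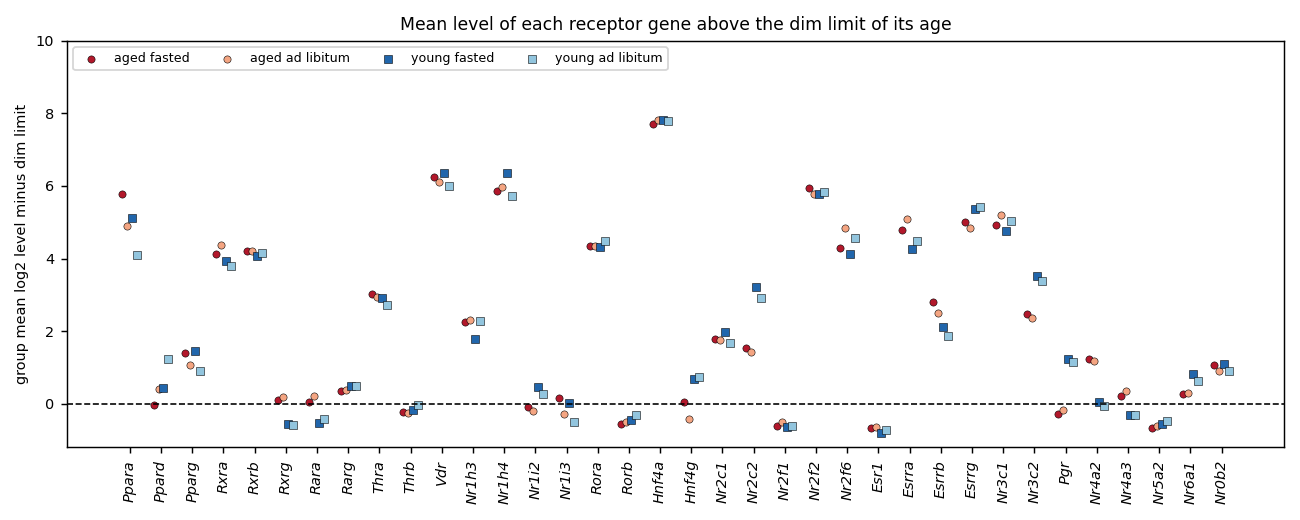
Mean log2 level of each receptor gene in the 4 groups, minus the dim limit of its age. Points on or below the dashed line at 0 are at or below the limit, and the heights of different genes are not comparable, since probe sets differ in brightness.

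Ppara encodes PPARα, the fatty acid-activated receptor that induces genes of fatty acid oxidation in fasting. Its levels were 9.21, 9.10, 8.92, 9.15 and 9.07 in the 5 aged fasted mice, against 8.39, 8.25, 8.12, 7.95 and 8.39 in the 5 aged ad libitum fed mice. In young kidneys they were 8.68, 9.04, 8.88 and 8.81 in fasted mice, against 7.66, 7.98, 7.83, 7.81 and 7.93 in ad libitum fed mice. Every fasted mouse lay above every ad libitum fed mouse of its age.

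The rise of Ppara was 0.87 in aged kidneys (SE 0.09, adjusted p = 0.000152 from limma), a fold of 1.83, and 1.01 in young kidneys (SE 0.09, adjusted p = 1.45e-05), a fold of 2.01. The difference between these effects, -0.14 (SE 0.13), did not pass (adjusted p = 0.741). Its 3 probe sets all passed in both ages, by 0.87 to 0.93 in aged and by 0.91 to 1.01 in young kidneys. Over all alternatives the rise stood between 0.80 and 0.92 in aged and between 0.95 and 1.07 in young kidneys.

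Nr2f6 encodes EAR2, an orphan receptor that mostly acts as a repressor. Its levels were 7.69, 7.68, 7.66, 7.43 and 7.64 in aged fasted mice, against 7.81, 8.38, 8.32, 8.28 and 8.03 in aged ad libitum fed mice. In young kidneys they were 7.86, 7.94, 7.87 and 7.84 in fasted mice, against 8.17, 8.39, 8.51, 8.21 and 8.28 in ad libitum fed mice. Fasted mice lay below ad libitum fed mice of their age without overlap, though aged ad libitum fed mouse 34 came close.

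Nr2f6 changed by -0.55 in aged kidneys (SE 0.11, adjusted p = 0.00916 from limma) and by -0.44 in young kidneys (SE 0.07, adjusted p = 0.00168). Both its probe sets fell in both ages, by values of -0.56 and -0.55 in aged and -0.53 and -0.44 in young kidneys. Among the 36 genes, Ppara and Nr2f6 were the 2 that passed in both ages. Every mouse's value is given for Nr2f6, Nr1h3, Nr1i3, Vdr and Pparg by a choice made after their values were seen, and for Ppara, Ppard, Nr1h4 and Rxra by the rule in the methods.

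The promoters of these genes, from RefSeq on GRCm38.p6, are shown because Ppara and Nr2f6 moved in opposite directions in both ages. Each runs from 250 bases before to 50 bases after an annotated start, 5′ to 3′ on the strand of the gene, and capitals mark GGGCGG (the GC box) or AGGTCA (a receptor half-site) on either strand.
Ppara, chr15:85735526-85735825, plus strand: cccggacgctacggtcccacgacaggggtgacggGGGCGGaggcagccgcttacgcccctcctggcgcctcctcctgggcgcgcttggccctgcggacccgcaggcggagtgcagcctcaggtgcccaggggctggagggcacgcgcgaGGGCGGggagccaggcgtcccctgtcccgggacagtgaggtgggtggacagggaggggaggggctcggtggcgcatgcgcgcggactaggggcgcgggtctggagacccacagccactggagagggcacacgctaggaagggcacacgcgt
Nr2f6, chr8:71381903-71382202, minus strand: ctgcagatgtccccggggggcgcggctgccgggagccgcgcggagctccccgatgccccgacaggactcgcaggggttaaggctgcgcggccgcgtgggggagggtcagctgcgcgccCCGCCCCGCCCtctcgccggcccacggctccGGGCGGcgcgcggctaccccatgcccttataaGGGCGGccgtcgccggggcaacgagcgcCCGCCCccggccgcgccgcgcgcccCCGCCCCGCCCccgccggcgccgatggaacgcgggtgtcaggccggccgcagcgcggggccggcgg
The Ppara window was 74.7% G or C and held GGGCGG at 2 places, and the Nr2f6 window was 82.7% G or C and held it at 7 places, some of which adjoin and share bases. GGGCGG occurred in 35.7% of 32851 promoter windows of this length and in 26 of the 56 windows of the receptor genes. AGGTCA occurred in neither window.

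Ppard encodes PPARδ, a fatty acid sensor found in most tissues. Its levels were 4.24, 4.37, 3.87 and 4.23 in young fasted mice, against 5.35, 4.83, 5.16, 4.71 and 4.74 in young ad libitum fed mice, with no overlap. It fell by 0.78 on the log2 scale in young kidneys (SE 0.14, adjusted p = 0.00261 from limma), a fold of 1.72. In aged fasted mice it lay between 3.16 and 3.45, at the dim limit, against 3.29 to 4.57 in aged ad libitum fed mice, a log2 fold change of -0.43 (SE 0.20) that did not pass (adjusted p = 0.265). The difference between the effects did not pass either (0.35, SE 0.27, adjusted p = 0.653). Its other probe set was too dim in both ages, and with the mean of both the change in young kidneys was -0.45, which still passed (adjusted p = 0.00332).

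Pparg encodes PPARγ, the main regulator of fat cell formation. Its levels were 6.09, 5.11, 5.08 and 4.51 in young fasted mice 339, 340, 343 and 344, against 4.49 to 4.77 in young ad libitum fed mice. Fasted mouse 344 lay among the ad libitum fed mice and the other 3 lay above them. The change of 0.55 (SE 0.24) did not pass (adjusted p = 0.135 from limma), and without fasted mouse 344 it was 0.78 and passed (adjusted p = 0.0226). In aged kidneys the log2 fold change was 0.32 (SE 0.21, adjusted p = 0.473).

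Fat cell markers were high in the same young fasted mice as Pparg. The median level of the 7 measured fat cell markers of 10 listed was 6.30, 5.75, 6.50 and 3.76 in young fasted mice 339, 340, 343 and 344, against 3.43 to 3.91 in young ad libitum fed mice. The log2 of their summed level ranged from 6.46 to 10.5 in young fasted and from 7.20 to 8.02 in young ad libitum fed mice. The aged median ranged from 3.30 to 6.48 in fasted and from 3.94 to 6.62 in ad libitum fed mice. Of the 7 markers, Dio2 and Elovl3 were too dim to judge. In young kidneys Cidea and Cox8b rose and Dio2, though dim, also passed, but 0 of the 7 passed without fasted mouse 339. The part of fat cells in the Pparg levels was not tested.

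Nr1h3 encodes LXRα, which senses oxysterols and induces genes of cholesterol export and lipid synthesis. Its levels were 5.33, 5.47, 5.62 and 5.64 in young fasted mice, against 5.97, 6.03, 6.12, 6.01 and 5.99 in young ad libitum fed mice, with no overlap. It fell by 0.51 on the log2 scale (SE 0.07, adjusted p = 0.000591 from limma). In aged kidneys its log2 fold change was -0.06 (SE 0.10, adjusted p = 0.821), with values of 5.24 to 5.73 in fasted and 5.46 to 5.75 in ad libitum fed mice.

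The difference between the effects on Nr1h3 was 0.45 (SE 0.13) and did not pass (adjusted p = 0.0723 from limma), but it passed without aged fasted mouse 38 (0.53, adjusted p = 0.0136) and with array quality weights (0.46, adjusted p = 0.0478). LXRα is also known from macrophages. The median of all 8 macrophage markers lay between 5.73 and 6.13 in young fasted mice, against 6.18 to 6.50 in young ad libitum fed mice, and 5 of the 8 fell and 1 rose. The log2 of their summed level was 9.29 to 9.40 in young fasted and 9.59 to 9.97 in young ad libitum fed mice. The aged medians overlapped, 5.72 to 6.43 in fasted and 5.77 to 6.33 in ad libitum fed mice. The part of macrophages in the Nr1h3 levels was not tested.

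Nr1h4 encodes FXR, the bile acid receptor, which is also present in the tubules of the kidney. Its levels were 10.20, 9.99, 10.30 and 9.90 in young fasted mice, against 9.46, 9.85, 9.55, 8.91 and 9.55 in young ad libitum fed mice, with no overlap. In aged kidneys they were 9.19, 9.24, 9.39, 8.96 and 9.16 in fasted mice, against 9.34, 9.18, 9.14, 9.31 and 9.50 in ad libitum fed mice, which overlapped. It rose by 0.63 in young kidneys (SE 0.16, adjusted p = 0.0154 from limma), a call lost when the variance of each probe set was used unmoderated (adjusted p = 0.0766), and its log2 fold change in aged kidneys was -0.11 (SE 0.09, adjusted p = 0.615).

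The fasting effect on Nr1h4 differed between the ages by -0.74, aged minus young (SE 0.19, adjusted p = 0.0472 from limma), and this was 1 of 2 such differences among the receptor genes, both negative, against 2.44% of all genes (0.895% negative and 1.55% positive). The call sat at the threshold. It was lost on leaving out any one of 16 of the 19 mice, the exceptions being aged fasted mouse 39 and young ad libitum fed mice 347 and 349, with differences of -0.67 to -0.80 and adjusted p of 0.0502 to 0.0875 where it was lost.

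Rxra encodes RXRα, the partner with which PPARs, LXRs, FXR and the vitamin D receptor bind DNA. Its levels were 7.33, 7.48, 7.38, 7.42 and 7.60 in aged fasted mice, against 7.61, 7.75, 7.81, 7.65 and 7.64 in aged ad libitum fed mice. In young kidneys they were 7.71, 7.77, 7.57 and 7.67 in fasted mice, against 7.53, 7.64, 7.63, 7.45 and 7.36 in ad libitum fed mice. Aged fasted mice lay lower without overlap, though mouse 42 all but reached ad libitum fed mouse 34, and the young groups overlapped.

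Neither age passed for Rxra, with -0.25 in aged (SE 0.07, adjusted p = 0.0593 from limma) and 0.16 in young kidneys (SE 0.07, adjusted p = 0.181), but the difference between them did (-0.41, SE 0.10, adjusted p = 0.0422). A second probe set of Rxra did not share this pattern: it stood at 0.13 in aged and at 0.30 in young kidneys, the young value passing. With the mean of its probe sets the difference was -0.19 (adjusted p = 0.232). The call on the brightest probe set was lost on leaving out any one of 12 mice, the exceptions being aged fasted mouse 42, aged ad libitum fed mice 34, 40 and 43, young fasted mouse 343 and young ad libitum fed mice 347 and 348. Rxrb (-0.02 in aged, -0.08 in young kidneys) and Rxrg (-0.09 in aged kidneys, too dim in young) did not pass.

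The promoters of Nr1h4 and Rxra are shown because their fasting effects, at the brightest probe set, passed as different between the ages. The scheme is the same as above, with AGGTCA in capitals, and for Rxra only the window that holds AGGTCA is shown.
Nr1h4, chr10:89506609-89506908, minus strand: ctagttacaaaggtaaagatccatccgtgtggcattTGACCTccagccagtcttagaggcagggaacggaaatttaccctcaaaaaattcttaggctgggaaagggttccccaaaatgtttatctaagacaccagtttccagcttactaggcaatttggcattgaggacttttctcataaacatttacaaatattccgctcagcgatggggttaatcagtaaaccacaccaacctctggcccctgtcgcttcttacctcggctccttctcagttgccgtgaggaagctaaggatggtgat
Rxra, second annotated start, chr2:27709042-27709341, plus strand: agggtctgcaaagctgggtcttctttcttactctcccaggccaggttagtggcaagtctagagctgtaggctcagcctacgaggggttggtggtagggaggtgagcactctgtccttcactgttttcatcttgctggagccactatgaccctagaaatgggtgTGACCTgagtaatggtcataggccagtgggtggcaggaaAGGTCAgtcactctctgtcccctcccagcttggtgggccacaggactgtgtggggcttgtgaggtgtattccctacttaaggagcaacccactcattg
In the Nr1h4 window AGGTCA lay on the opposite strand, 214 bases before the start. In this Rxra window it lay on the opposite strand 87 bases and on the strand of the gene 48 bases before the start, and the other annotated start of Rxra had none. The window of that other start held GGGCGG at 4 places. AGGTCA occurred in 16.3% of all promoter windows and in 10 of the 56 windows of receptor genes (17.9%), which cover 35 of the 38 genes. The direct repeat AGGTCANAGGTCA, to which PPAR and RXR pairs bind, occurred in 0.0396% of all windows and in 0 of those of receptor genes.

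**Figure D3:**
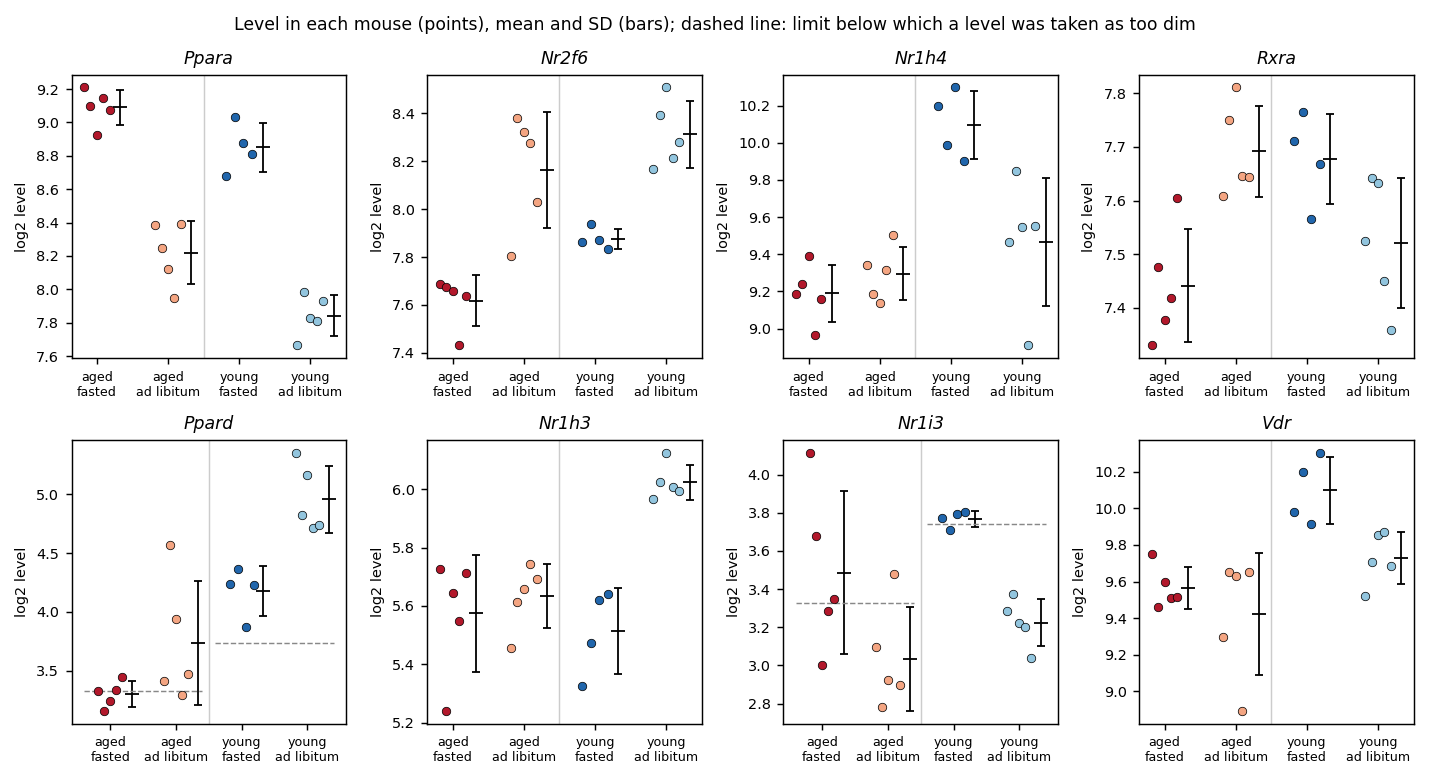
Log2 level in each mouse of 8 receptor genes, with the mean and standard deviation of each group beside the points. Fasted mice lie above ad libitum fed mice in both ages for Ppara and below them in both ages for Nr2f6. Nr1h4, Ppard, Nr1h3, Nr1i3 and Vdr separate the diets in young kidneys only, and Rxra, narrowly, in aged kidneys only.

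Vdr, the vitamin D receptor, had levels of 9.98, 10.20, 9.91 and 10.30 in young fasted mice, against 9.52, 9.71, 9.85, 9.87 and 9.69 in young ad libitum fed mice. The groups did not overlap, and it rose by 0.37 (SE 0.10, adjusted p = 0.0194 from limma), as did its other probe set (0.35). The call was lost without young fasted mouse 340 (0.34, adjusted p = 0.0577) or 344 (0.30, adjusted p = 0.0591). Over all alternatives, single mice included, the call was lost in 4, with adjusted p of 0.0575 to 0.0676. The aged log2 fold change was 0.14 (SE 0.14, adjusted p = 0.66).
The retinoic acid receptors and the thyroid hormone receptor Thra did not pass. Rarg changed by -0.03 in aged and 0.00 in young kidneys, Rara by -0.18 in aged kidneys, and Thra by 0.07 in aged and 0.17 in young kidneys (adjusted p = 0.0601 from limma in young kidneys). The second probe set of Thra passed in young kidneys, with 0.42.

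Nr1i3 encodes CAR, a receptor that induces drug-metabolizing enzymes, mainly in liver. Its levels were 3.77, 3.71, 3.79 and 3.80 in young fasted mice, against 3.28, 3.37, 3.22, 3.20 and 3.04 in young ad libitum fed mice. It rose by 0.55 (SE 0.07, adjusted p = 0.000243 from limma). The groups did not overlap, but 1 fasted and all ad libitum fed mice lay below the dim limit. In aged kidneys the level was 4.11 in fasted mouse 33 and 3.00 to 3.68 in the other fasted mice, against 2.78 to 3.48 in ad libitum fed mice, a log2 fold change of 0.45 (SE 0.19, adjusted p = 0.213).

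Liver markers varied over the same arrays. The median of 9 measured liver markers of 10 listed was 10.2 in aged fasted mouse 33 and 5.41 to 6.87 in the other aged fasted mice, against 5.50 to 7.93 in aged ad libitum fed mice. In young kidneys it was 7.61 to 8.51 in fasted mice, against 6.72 to 7.43 in ad libitum fed mice, and 2 of the 9 rose and 1 fell. The log2 of the summed level was 13.3 to 13.4 in young fasted and 13.2 to 13.5 in young ad libitum fed mice, which overlapped, and 12.8 to 14.4 in aged fasted mice, against 13.0 to 13.1 in those fed ad libitum. The part of liver RNA in the levels of Nr1i3 and Nr1h4 was not tested. Without aged fasted mouse 33 and young fasted mouse 339, 2 receptor genes passed in aged and 10 in young kidneys, where Nr2c2 joined and Nr3c1 dropped out. The related receptor Nr1i2, known as PXR, was too dim in aged kidneys and changed by 0.20 in young kidneys (SE 0.09, adjusted p = 0.145 from limma).

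**Figure D4:**
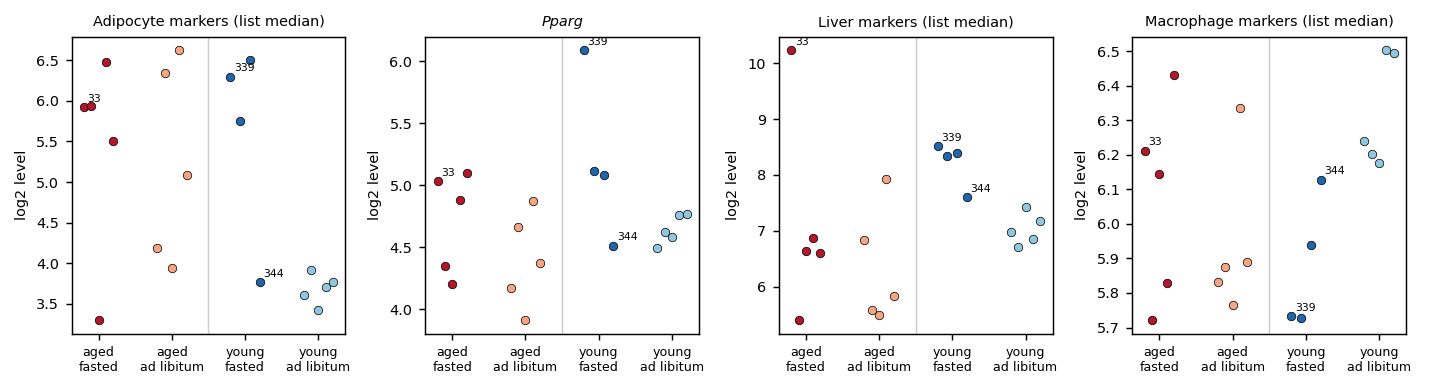
Log2 level per mouse of the fat cell, liver and macrophage marker lists (medians) and of Pparg. Young fasted mice 339, 340 and 343 lie high for the fat cell markers, aged fasted mouse 33 stands at 10.2 for the liver markers, and the young fasted mice lie below the young ad libitum fed mice for the macrophage markers.

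Among HNF4 and the NR2 orphan receptors, Nr2f6 passed in both ages and Nr2c1 in young kidneys. Nr2c1, an orphan receptor that mostly represses, rose by 0.31 in young kidneys (SE 0.08, adjusted p = 0.0145 from limma), with levels of 5.55 to 5.88 in fasted and 5.30 to 5.47 in ad libitum fed mice. Its other 2 probe sets above the limit did not pass in young kidneys, with -0.05 and 0.14, and with the mean of its probe sets Nr2c1 did not pass (0.13, adjusted p = 0.105). Its relative Nr2c2 changed by 0.11 in aged and 0.30 in young kidneys (adjusted p = 0.0523 in young kidneys).
Hnf4a, a regulator of proximal tubule and liver genes, changed by -0.10 in aged and 0.02 in young kidneys, with an SE of 0.06 and 0.05. In young kidneys its 4 probe sets ranged from 0.02 to 0.32, of which the highest passed (adjusted p = 0.0324 from limma). It lay between 10.94 and 11.11 in aged fasted and 11.11 and 11.24 in aged ad libitum fed mice. Hnf4g, its close relative, changed by 0.45 in aged kidneys (SE 0.16, adjusted p = 0.125) and by -0.05 in young kidneys, and the aged ad libitum mean of 2.91 was below the dim limit. Nr2f2, known for its role in veins and stroma, changed by 0.15 and -0.06. The RORα gene Rora changed by -0.01 in aged and -0.17 in young kidneys, with probe sets of both signs.

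Of the steroid receptors, Nr3c1 fell in young kidneys. Nr3c1 encodes the glucocorticoid receptor, and its levels were 8.43 to 8.58 in young fasted mice, against 8.63 to 8.94 in young ad libitum fed mice, without overlap. The log2 fold change was -0.29 (SE 0.08, adjusted p = 0.0209 from limma), and 3 of 4 probe sets above the limit passed, with values of -0.28 to -0.30. The call was lost without fasted mouse 339 (-0.27, adjusted p = 0.0538) or 343 (-0.29, adjusted p = 0.0512). Over all alternatives, single mice included, the call was lost in 4, with adjusted p of 0.0512 to 0.0538. The aged value was -0.28 (SE 0.10, adjusted p = 0.15). Nr3c2, the mineralocorticoid receptor, changed by 0.14 in aged and 0.13 in young kidneys and did not pass. The progesterone receptor Pgr was too dim in aged kidneys and changed by 0.09 in young kidneys.

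Esrra, an estrogen-related receptor known for the control of mitochondrial genes, fell by 0.23 on the log2 scale in young kidneys (SE 0.06, adjusted p = 0.0227 from limma). Its levels were 7.89 to 8.05 in young fasted and 8.14 to 8.31 in young ad libitum fed mice. The call was lost without young fasted mouse 343 or 344 or young ad libitum fed mouse 346, with adjusted p of 0.0506, 0.0694 and 0.0502. Over all alternatives, single mice included, the call was lost in 4, with adjusted p of 0.0502 to 0.0895. In aged kidneys Esrra lay between 7.98 and 8.23 in fasted mice and 8.27 and 8.80 in ad libitum fed mice, without overlap, and the log2 fold change of -0.30 (SE 0.10) did not pass (adjusted p = 0.109).
Esrrb (0.28 in aged, 0.24 in young kidneys) and Esrrg (0.15 and -0.05) did not pass. The immediate-early receptors Nr4a2 (0.05 in aged, 0.11 in young kidneys) and Nr4a3 (-0.11 in aged kidneys), the germ cell nuclear factor Nr6a1 (-0.01 and 0.20) and Nr0b2, a receptor without a DNA-binding domain known as SHP (0.17 and 0.18), did not pass either.

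Genes of the wider pathway were read from 13 lists of coregulators, enzymes and binding proteins of the ligands, and target genes, which share some genes, and their counts stand against the 9.16% of all genes that passed in aged and the 23.2% in young kidneys. Among these lists the targets of PPARα held the most genes that passed, all of them rises. The genes that passed also shared a direction in the CAR and PXR, vitamin D, thyroid hormone, and glucocorticoid and mineralocorticoid receptor lists. Of 15 measured members of 18 listed, 10 rose in aged and 12 in young kidneys, 0 fell in either, and the median log2 fold change was 0.85 and 0.77. Leaving out each mouse gave 10 or 11 in aged and 12 in young kidneys. Cyp4a10, a fatty acid hydroxylase, rose by 1.62 in aged and 1.79 in young kidneys, Vnn1, a pantetheinase, by 1.46 and 1.33, and Slc25a20, the mitochondrial carnitine carrier, by 0.85 and 1.18. Over the other 12 lists the median lay between -0.15 and 0.43 in aged and between -0.23 and 0.46 in young kidneys, against -0.01 for all genes in both ages. The numbers of measured genes include some too dim to judge. In each age 14 PPARα, 7 LXR, 5 FXR and 6 CAR and PXR targets could be judged. So could 5 vitamin D receptor, 5 thyroid hormone receptor and 6 retinoid targets. Of the genes of ligand supply, 13 in aged and 14 in young kidneys could be judged, and in the remaining lists all could.

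Targets of the other lipid sensors moved in both directions. Of 9 measured LXR targets, 2 rose and 1 fell in aged kidneys, and 2 rose and 2 fell in young kidneys, where 4 fell without fasted mouse 339. Apoe rose by 1.31 in aged and 0.83 in young kidneys, and Mylip, a ubiquitin ligase for the LDL receptor, by 0.67 and 0.66. The fatty acid synthase gene Fasn changed by -1.09 in aged and -1.18 in young kidneys, with the aged call lost without ad libitum fed mouse 36 (adjusted p = 0.0581 from limma). Lpl, lipoprotein lipase, changed by -0.07 in aged kidneys (adjusted p = 0.804) and fell by 0.72 on the log2 scale in young kidneys. The effects on Lpl differed by 0.65, aged minus young (adjusted p = 0.0202), but not without young fasted mouse 340 (adjusted p = 0.0509).

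Of 8 FXR targets, 1 rose and 1 fell in aged kidneys, and 1 rose and 2 fell in young kidneys. This list holds the receptor gene Nr0b2, already given above, which did not pass. Slc51a, a subunit of a bile acid exporter, changed by -1.0 in aged and -0.69 in young kidneys. Abcc2, an exporter of organic anions, rose by 0.47 in aged kidneys, a call lost without fasted mouse 41 (adjusted p = 0.0532 from limma), and by 0.60 in young kidneys. Slc10a2, the bile acid importer, changed by 0.38 in aged kidneys (adjusted p = 0.181) and by -0.68 in young kidneys (adjusted p = 0.000217), and these effects differed by 1.06, aged minus young (adjusted p = 0.0049).

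Of 8 CAR and PXR targets, 1 rose in aged kidneys, which became 0 without fasted mouse 38 or 42 and 2 without ad libitum fed mouse 34. In young kidneys 2 rose, the exporter Abcc3 by 0.82 and the glutathione transferase Gstm1, whose probe sets can bind its relatives, by 0.71. The young mean of Abcc3 was 4.45 in fasted mice and 3.63, below the dim limit of 3.74, in ad libitum fed mice. Of 7 vitamin D receptor targets, 0 rose in either age, while 2 fell in aged and 3 in young kidneys. Slc8a1 changed by -2.30 in aged and -1.77 in young kidneys. Calb1, a calcium-binding protein of the distal tubule, changed by -0.99 in aged and -0.94 in young kidneys, and S100g, another calcium-binding protein, by -0.06 (adjusted p = 0.844 from limma) and -0.44. Calb1 also stands in the marker list of the loop of Henle and distal tubule, of whose 7 genes 2 fell in aged and 3 in young kidneys. Without Calb1, an alternative chosen after seeing the data, 1 of the 6 other genes fell in aged kidneys and 2 in young kidneys. The median of these 6 genes was 8.42 to 8.78 in aged fasted mice, against 8.74 to 9.27 when fed ad libitum, and 9.31 to 9.47 in young fasted mice, against 9.40 to 9.64 when fed ad libitum. The log2 of their summed level was 13.2 to 13.4 in both diets in aged kidneys, and 13.9 to 14.0 in young fasted mice, against 14.0 to 14.1 when fed ad libitum. All of these ranges of the 6 genes overlapped between the diets. With Calb1 kept, the aged median of the 7 genes was 8.79 to 9.19 in fasted mice, without overlap with 9.67 to 10.46 when fed ad libitum. The log2 of their summed level was 14.11 to 14.18 in young fasted mice, without overlap with 14.29 to 14.39 when fed ad libitum. The young medians and the aged summed levels of the 7 genes overlapped between the diets. The part of the loop of Henle and distal tubule in the levels of Calb1, Slc8a1 and S100g was not tested.

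Of 6 thyroid hormone receptor targets, 1 fell in aged and 3 in young kidneys, with the malic enzyme gene Me1 at -0.34 in aged and -0.37 in young kidneys. Of 8 retinoid targets, 2 rose and 1 fell in aged kidneys and 3 rose and 1 fell in young kidneys, but leaving out each mouse gave 1 to 3 in aged (fewest without fasted mouse 41 or ad libitum fed mouse 37) and 2 or 3 in young kidneys (fewest without fasted mouse 340 or 344 or ad libitum fed mouse 350). Rarres2, the chemerin gene, rose by 1.29 in young kidneys. Of 9 targets of the glucocorticoid and mineralocorticoid receptors, 2 rose in aged and 5 in young kidneys and 0 fell. Leaving out each mouse gave 0 to 2 in aged kidneys, with fewer than 2 when any mouse other than fasted mouse 33 and ad libitum fed mouse 34 was left out. It gave 2 to 5 in young kidneys, with 2 or 3 without fasted mouse 343 or 344 or ad libitum fed mouse 348, 349 or 350. The inhibitor of NF-κB Nfkbia rose by 1.01 in young kidneys.

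Of 9 HNF4A targets, 2 rose and 1 fell in aged kidneys and 3 rose and 3 fell in young kidneys. Apob, the apolipoprotein B gene, rose by 0.40 in aged and 1.14 in young kidneys. These effects differed by -0.73, aged minus young (adjusted p = 0.00149 from limma). The aged means of Apob, 3.901 in fasted and 3.497 in ad libitum fed mice, lay near the dim limit of 3.33. Its young means, 6.918 and 5.781, lay well above the limit of 3.74. The part of the low aged levels in this difference was not tested. Of 9 targets of the estrogen-related receptors, 1 rose and 2 fell in aged kidneys and 1 rose and 3 fell in young kidneys. This list holds Esrra itself, already given above, which is among the 3 that fell in young kidneys. The gene of this list that rose was Pdk4 in both ages (2.51 in aged, 3.07 in young kidneys), which also counts among the PPARα targets. Cycs, cytochrome c, changed by -0.40 in aged and -0.35 in young kidneys.

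Of 9 coactivators, 1 rose in aged kidneys, Ppargc1b, a partner of PPARs and estrogen-related receptors, by 0.42, and 2 rose without fasted mouse 33. In young kidneys 2 rose, Ppargc1b by 0.41 among them, and 1 fell. Of 6 corepressors, 1 rose in young kidneys, with 0 to 2 on leaving out each mouse (0 or 2 without fasted mouse 344 or any ad libitum fed mouse but 348). Of 16 genes of ligand supply, 3 rose in aged kidneys (5 passed without fasted mouse 33), and 4 rose and 3 fell in young kidneys (4 passed without fasted mouse 343). Aldh1a1, which makes retinoic acid, rose by 1.65 in aged and by 3.31 in young kidneys, and these differed by -1.65 (adjusted p = 9.24e-05 from limma). Cyp27a1, which makes oxysterols, rose by 0.62 in aged and 0.96 in young kidneys.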

How the data were processed

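The deposited table holds log2 values of 45141 probe sets on 19 arrays, which the authors made by RMA, a method that corrects background, normalizes and summarizes probes (version not given in the sources used here). Array medians were apart between aged and young arrays, and how the ages were normalized together is not given in the sources used here. The number of arrays limits the precision, and p-values measure the spread between mice.

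Fold changes were fitted to the deposited values over all probe sets with limma 3.58.1 in R 4.3.3, without a pseudocount, for the 10 aged and the 9 young arrays separately. The difference between the fasting effects came from 1 fit of the 4 group means to 19 arrays. No batch is named in the labels. On simulated data with 100 probe sets changed by a log2 value of 1, the fits recovered 98 in aged kidneys, 96 in young kidneys and 91 for the difference, with 10, 6 and 6 unchanged probe sets called. At a log2 value of 0.58, near or above the size of most receptor changes, they recovered 74, 70 and 48 of 100. Only these probe sets were changed, a far smaller share than passed in the data. Each probe set had 1 spread, averaged over the 4 groups, for both ages. The recoveries therefore do not give the power of the tests on the real data.

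The annotation given gave 1 gene symbol to 28898 probe sets, several to 551 and none to 15692. Receptors passing with a fold of at least 1.5, or with effects that differ between the ages, were given in full, and up to 4 genes of each pathway list. Receptors and lists were chosen with earlier results of these data known. Counts of the pathway lists without aged fasted mouse 33 and young fasted mouse 339 were added after seeing the data.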

Additional observations from a re-analysis of the deposited data

Results flagged for a closer look

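The fasting effect differed between the ages, aged minus young, for Rxra (-0.41, adjusted p = 0.0422 from limma over all 19 arrays) and Nr1h4 (-0.74, adjusted p = 0.0472).

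In 10 of 114 groups of mice (both diets of each age, for the receptor genes not too dim in that age) 1 mouse stood apart from the others by Dixon's test at the 95% level, where chance gives about 5.7. For Nr2c2 these were aged fasted mouse 33, at 4.12 with the others between 4.91 and 5.21, and aged ad libitum fed mouse 40, at 4.25 with the others between 4.80 and 4.97. For Hnf4a they were young fasted mouse 343, at 11.61 with the others between 11.53 and 11.54, and aged ad libitum fed mouse 37, at 11.24 with the others between 11.11 and 11.15. Nr2f6 was 7.43 in aged fasted mouse 41 and 7.64 to 7.69 in the other aged fasted mice. Nr2f2 was 9.78 in young fasted mouse 344 and 9.40 to 9.46 in the other young fasted mice. Among ad libitum fed mice, Thra was 6.09 in aged mouse 34 (others 6.30 to 6.35), Hnf4g 4.75 in young mouse 350 (others 4.29 to 4.42), Pgr 4.47 in the same mouse (others 4.92 to 5.08) and Esrrb 5.28 in young mouse 349 (others 5.64 to 5.71).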

How the results depend on the processing

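The number of receptor genes that passed in aged kidneys, 2, became 5 with all 19 arrays in 1 fit and 1 with a fold of at least 1.5 added, and 2 or 3 when each mouse was left out. The number in young kidneys, 10, became 3 with a fold of at least 1.5 added and 5 with the threshold on the adjusted p set at 0.01, and 9 or 10 when each mouse was left out. The number of effects that differed between the ages, 2, became 0 with the ordinary test without moderation, with arrays centred on their medians, without aged fasted mouse 33 and young fasted mouse 339, and with the threshold set at 0.01. It became 1 with a variance trend and robust fitting and with the mean of a gene's probe sets, and 0 to 2 when each mouse was left out. The cause of these shifts was not tested, apart from the stricter thresholds. Counts under alternatives other than the fold minimum have no share of all genes beside them, so they were not set against a background. For the 12 receptor genes recomputed one by one, 709 values under alternatives stayed on their side of the threshold with the same sign, 50 lost a call and 8 gained one. Ppara and Nr2f6 passed in both ages in every alternative fit and without each mouse. No paired analysis was possible because the mouse numbers of the groups are not shared.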
